A study of Sus scrofa with 6 samples.

Results

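MicroRNAs (miRNAs) of the DLK1-DIO3 imprinted domain were followed in small RNA libraries from the skin of the Xiang pig, a miniature breed from China. Members were chosen by name, with earlier results of these data known. A row of the table was taken when its porcine miRNA name, without the arm suffix, was 1 of 38 names known from the domain. This gave 11 rows from 10 of the 38 names, out of 898 rows in all, of which 280 carry a miRBase-style name and 618 a predicted identifier. The libraries fall into black skin (S03, S04 and S05) and white skin (S02, S06 and S07), with 3 libraries each, and the study set black against white skin to look for miRNAs that bear on melanin formation. All 6 are labelled as Xiang skin kept in an RNA preservative in the cold. No animal, body site, sex, age or extraction batch is given for any library. It is thus not known whether libraries of a colour are separate animals, or whether a black and a white library share an animal. The p-values ignore any such pairing. They speak of the spread among these libraries only, part of which may be technical.

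The DLK1-DIO3 domain is an imprinted stretch of the mammalian genome. Protein-coding genes such as DLK1, RTL1 and DIO3 are read from the chromosome inherited from the father, and long noncoding RNAs that carry the miRNA hairpins, among them MEG3, are read from the maternal one. The hairpins form a group beside MEG3 and RTL1 and a larger group from miR-379 to miR-656, and the products are thought to be cut from shared long transcripts. These miRNAs are known for high levels in embryo, placenta, brain and mesenchymal cells, and low levels in most adult epithelia.

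In the RefSeq gene table of Sscrofa11.1, precursors were found for 4 of the 10 names. MIR493 lies on chromosome 7 at 121697837 to 121697919, between MEG3 (121656253 to 121660495) and RTL1 (121706955 to 121720472). MIR127 at 121709636 to 121709715 and MIR432 at 121711137 to 121711216 both lie within the span of RTL1. MIR376A is given at 46331 to 46410 on a sequence that the table does not assign to a chromosome. The sorting of members into the 2 groups of hairpins follows the order known from other mammals, and placed 5 rows on the MEG3 and RTL1 side and 6 on the miR-379 to miR-656 side.

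The values are RPM, miRNA reads scaled to the same total of 1e+06 in each library, from which the underlying whole reads were worked out. The libraries held 7332769 to 8647930 reads in black skin and 6454685 to 10165949 in white skin, so that 1 read is worth 0.0984 to 0.155 RPM. As a check of the tissue, the summed level of 5 epithelial and keratinocyte miRNAs, of 10 on that list, was 18739 to 25754 RPM in black skin and 23475 to 34650 RPM in white skin. The melanocyte list rested on 2 miRNAs, miR-204 and miR-146a, with 2274 to 3804 RPM in black skin and 1863 to 3597 RPM in white skin. Most of this sum is ssc-miR-146a-5p, and ssc-miR-204 alone measured 88.5 to 135.1 RPM in black skin and 57.7 to 71.1 RPM in white skin. The groups did not overlap for it, as for 27.3% of the 454 miRNAs with enough reads to test. In such bulk tissue, fewer cells of a type and less RNA per cell cannot be told apart.

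The named members of the cluster were scarce in skin of either colour. Any product of the domain listed under a predicted identifier is not counted here. Together the 11 members measured 40.2, 67.8 and 38.7 RPM in black S03, S04 and S05, against 165.1, 56.7 and 51.0 RPM in white S02, S06 and S07. This is 0.00387 to 0.00678% of the miRNA reads in black skin and 0.00510 to 0.0165% in white skin. The white library S02 stood apart, at 3.07 times the mean of the other white libraries. Those other white libraries lay within the range of black skin. The group means were 48.9 ± 16.4 RPM in black skin and 90.9 ± 64.3 RPM in white skin (SD, n = 3 each), and without S02 the white mean was 53.8 RPM.

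No member passed the test between black and white skin. Black skin was set against white skin with limma on the log2(RPM + 1) scale, and p-values were adjusted by the Benjamini-Hochberg method over every miRNA with enough reads. Of the 454 miRNAs tested, 32 (7.05%) passed at an adjusted p under 0.05, and 0 of the 7 tested cluster members did. At an unadjusted p under 0.05 there was 1 of the 7, ssc-miR-370, against 25.6% of all tested miRNAs. edgeR and DESeq2 on the recovered reads also called 0 of the 7, against 30 and 52 of all 454. At an unadjusted p under 0.05 there were 2 and 3 of the 7, against 118 and 108 of the 454. The differences of the 7 were below 0 for 6 and above 0 for 1, with a median of -0.62, against a median of 0.0022 over all tested miRNAs. The median of the 7 was -0.20 without S02. The other 4 members had too few reads for the filter, and with no filter 0 of 11 passed (limma), against 3.45% of 898 rows. The groups did not overlap for 2 of the 11, against 20.9% of those rows.

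**Figure D1:**
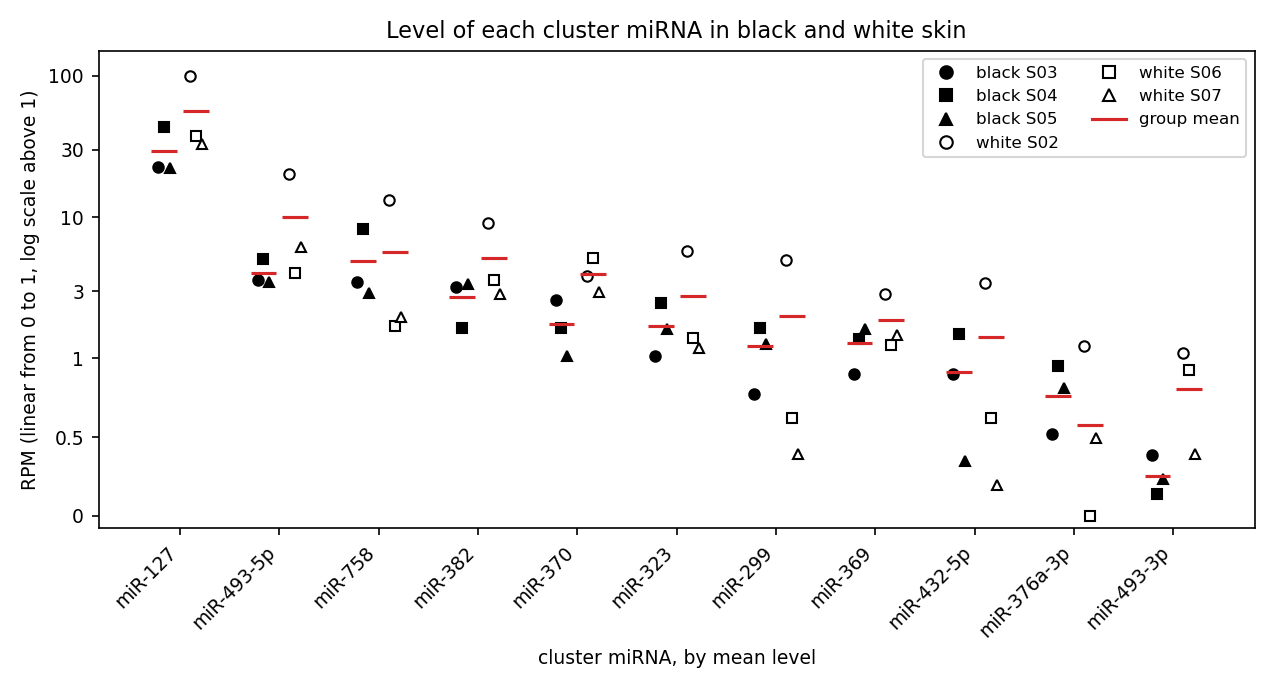
Level of each cluster miRNA in RPM in the 3 black (filled) and 3 white (open) libraries, with group means as red lines, on an axis that is linear up to 1 RPM and logarithmic above. The open circle, white S02, is the highest point for 10 of the 11 members, and miR-370 is the exception.

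On the MEG3 and RTL1 side, ssc-miR-127 was the most abundant member and held 56.6 to 66.1% of the cluster's RPM in every library. Its hairpin lies within RTL1, and in mouse its product is known to act on Rtl1 RNA. It measured 22.7, 43.2 and 22.1 RPM in black skin (S03, S04, S05), and 99.6, 37.5 and 33.0 RPM in white skin (S02, S06, S07). S02 was far above the rest, the black library S04 was above both other white libraries, and the groups overlapped. The means were 29.3 ± 12.0 RPM in black skin and 56.7 ± 37.2 RPM in white skin (SD, n = 3 each). The difference of -0.81 on the log2(RPM + 1) scale had a standard error of 0.45 (limma, adjusted p = 0.301), and was -0.32 with a standard error of 0.36 without S02 (adjusted p = 0.620).

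ssc-miR-493-5p, the second most abundant member, is studied in human carcinoma cells as an inhibitor of metastasis. It measured 3.61, 5.05 and 3.47 RPM in black skin, and 19.999, 4.03 and 6.10 RPM in white skin, in the same order of libraries. S02 alone was high, and S06 lay within the black range. It differed by -0.86, with a standard error of 0.50 (limma, adjusted p = 0.321), and -0.26 without S02 (adjusted p = 0.657).

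The opposite arm of that hairpin, ssc-miR-493-3p, was the scarcest member, with 3, 1 and 2 reads in black S03, S04 and S05, against 8, 6 and 4 reads in white S02, S06 and S07. These are 0.387, 0.136 and 0.231 RPM in black skin, and 1.10, 0.930 and 0.393 RPM in white skin. The groups did not overlap, though the highest black and the lowest white library differed by less than the worth of 1 read. At this depth the difference of -0.51 did not pass (limma with no filter, standard error 0.22, adjusted p = 0.276). The 3p arm made up 9.68, 2.63 and 6.25% of the hairpin's reads in S03, S04 and S05, and 5.19, 18.8 and 6.06% in S02, S06 and S07. The exact 95% binomial intervals run from 0.067 to 25.8% in black skin and from 1.68 to 36.4% in white skin and overlap for all libraries. The balance of the arms therefore did not move detectably. The log2 ratio of 3p to 5p, tested over 55 hairpins with no filter, differed by 0.35 (standard error 0.41, limma, adjusted p = 0.612). The 1 RPM added to each arm was near or above the level of the 3p arm in every library. With 0.1 RPM added the difference was -0.36, so its sign depends on the amount added.

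ssc-miR-370 had the lowest adjusted p of the 7 tested members with limma on all libraries, though with DESeq2 ssc-miR-493-5p (adjusted p = 0.1001) and ssc-miR-127 (0.143) came before it (0.196), as did ssc-miR-493-5p with limma without S06 (0.226 against 0.291). In human liver cells miR-370 is known to act on CPT1A, an enzyme of fatty acid oxidation. ssc-miR-370 measured 2.58, 1.64 and 1.04 RPM in black skin, and 3.84, 5.11 and 2.95 RPM in white skin. Every white library lay above every black library, and S06, not S02, was the highest. Among the 7 tested members it was the 1 whose groups did not overlap, as was the case for 27.3% of all tested miRNAs. The means were 1.75 ± 0.777 RPM in black skin and 3.97 ± 1.09 RPM in white skin (SD, n = 3 each), a 2.26-fold lower level in black skin, from 41 and 91 reads in all. The difference of -0.87 with a standard error of 0.31 did not pass (limma, adjusted p = 0.132). It was as large without S02 (-0.87, adjusted p = 0.144), and the lowest adjusted p in any other setting was 0.0759, with RPM taken over named miRNAs only.

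The last member of this side, ssc-miR-432-5p, comes from a hairpin within RTL1 next to that of miR-127. It was under the read filter, with 7, 11 and 3 reads in S03, S04 and S05 and 25, 4 and 2 reads in S02, S06 and S07. S02 was the highest of the 6 and S07 the lowest. In RPM this is 0.904, 1.5001 and 0.347 in black skin, and 3.42, 0.620 and 0.197 in white skin. The difference was -0.14 with S02 and 0.42 without it (limma with no filter, adjusted p = 0.905 and 0.521).

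On the miR-379 to miR-656 side, ssc-miR-758 was the most abundant. In human and mouse cells it is known to act on ABCA1, a cholesterol exporter. It measured 3.49, 8.18 and 2.89 RPM in black skin, and 13.3, 1.70 and 1.97 RPM in white skin. S02 was the highest library while S06 and S07 were the lowest of all 6, so white skin spanned the whole range and black skin lay inside it. It differed by 0.16, with a standard error of 0.63 (limma, adjusted p = 0.911). Without S02 it was 0.94 with a standard error of 0.40, with all 3 black libraries above both remaining white ones, and did not pass (adjusted p = 0.178). With edgeR it was -0.19, so that its direction depends on the setting.

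ssc-miR-382 measured 3.23, 1.64 and 3.35 RPM in black skin, and 9.04, 3.56 and 2.85 RPM in white skin. S02 was again the highest library, but here S04 was the lowest, where it was the highest black library for miR-127 and miR-758. It differed by -0.62, with a standard error of 0.41 (limma, adjusted p = 0.395), and -0.20 without S02 (adjusted p = 0.758). ssc-miR-323 measured 1.03, 2.45 and 1.62 RPM in black skin, and 5.75, 1.39 and 1.18 RPM in white skin. Only S02 lay outside the black range, and the difference of -0.31 turned to 0.21 without it (limma, adjusted p = 0.730 and 0.702).

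The other members of this side were ssc-miR-369, ssc-miR-299 and ssc-miR-376a-3p. Of these miR-369 is known in human cells to bind the RNA of tumour necrosis factor, and miR-376a is known for RNA editing within its seed in brain. ssc-miR-369 passed the read filter with 0.904 to 1.62 RPM in black skin and 1.24 to 2.88 RPM in white skin, and differed by -0.29 (limma, adjusted p = 0.622), or -0.05 without S02. ssc-miR-299 had 6 to 12 reads per library in black skin, and 36, 4 and 4 reads in S02, S06 and S07. Its difference was -0.11 with S02 and 0.55 without it (limma with no filter, adjusted p = 0.937 and 0.304). ssc-miR-376a-3p had 4 to 7 reads in black skin and 9, 0 and 5 reads in white skin, where the 0 in S06 allows up to 0.465 RPM. It was the 1 member of 11 with a higher mean in black skin, averaging 0.760 ± 0.223 RPM there and 0.575 ± 0.621 RPM in white skin (SD, n = 3 each), and the difference of 0.23 did not pass (limma with no filter, adjusted p = 0.777).

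**Figure D2:**
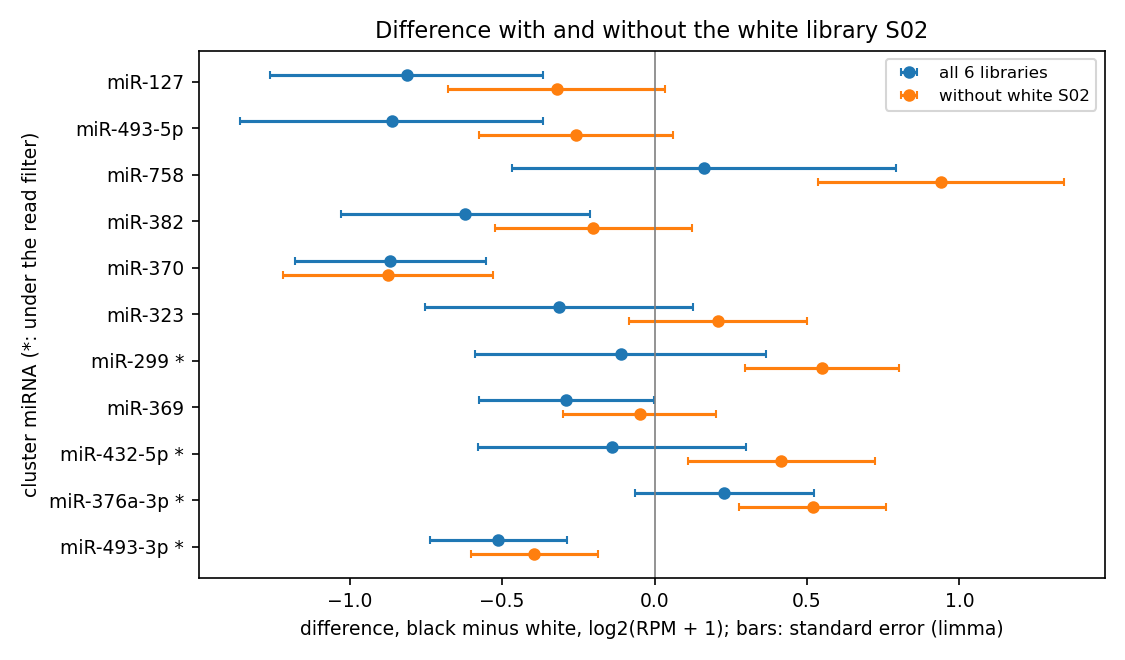
Difference between black and white skin on the log2(RPM + 1) scale for each member, with its standard error from limma, with all 6 libraries (blue) and without white S02 (orange); members under the read filter are starred and come from the fit with no filter. With S02, 9 of 11 differences are below 0, and without it 6 are below and 5 above 0.

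Within white skin most members shared a profile over the libraries. S02 was the highest of all 6 libraries for 10 of the 11 members. ssc-miR-376a-3p had no read in S06, and of the other 10 members, with a read in every library, S02 was the highest for 9. Among all 658 rows with a read in every library it was the highest for 22.8%. On the log2(RPM + 1) scale S02 exceeded the mean of S06 and S07 by 2.33 for ssc-miR-758, 1.81 for ssc-miR-493-5p, 1.56 for ssc-miR-323, 1.48 for ssc-miR-127, 1.26 for ssc-miR-382 and 0.72 for ssc-miR-369. ssc-miR-370 alone among the 7 tested members showed no such excess, at -0.02. The median of the 7 was 1.48, against 0.07 over all 454 tested miRNAs, and 4 of the 7 were among the 20 miRNAs with the largest excess.

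Black skin showed a milder pattern of the same kind. S04 was the highest black library for 7 of the 11 members, and for 6 of the 10 with a read in every library, against 34.3% of the 658 rows. Some of these rest on few reads: S04 and S05 had 7 each for ssc-miR-376a-3p, and 12 and 11 for ssc-miR-299. For ssc-miR-758 S04 was 2.57 times and for ssc-miR-127 1.93 times the mean of S03 and S05. For ssc-miR-382 and ssc-miR-493-3p S04 was 0.497 and 0.441 times that mean. S04 was the highest black and S02 the highest white library together for the same 7 of the 11 members (63.6%). Of the 10 members with a read in every library this held for 6 (60.0%), and of the 658 rows for 19.3%. The members' spread within groups was accordingly wide. The residual SD on the log2(RPM + 1) scale was 1.06 for ssc-miR-758, 0.78 for ssc-miR-493-5p, 0.71 for ssc-miR-127, 0.69 for ssc-miR-323 and 0.60 for ssc-miR-382, but 0.36 for ssc-miR-370 and 0.34 for ssc-miR-369, against a median of 0.34 over all tested miRNAs.

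**Figure D3:**
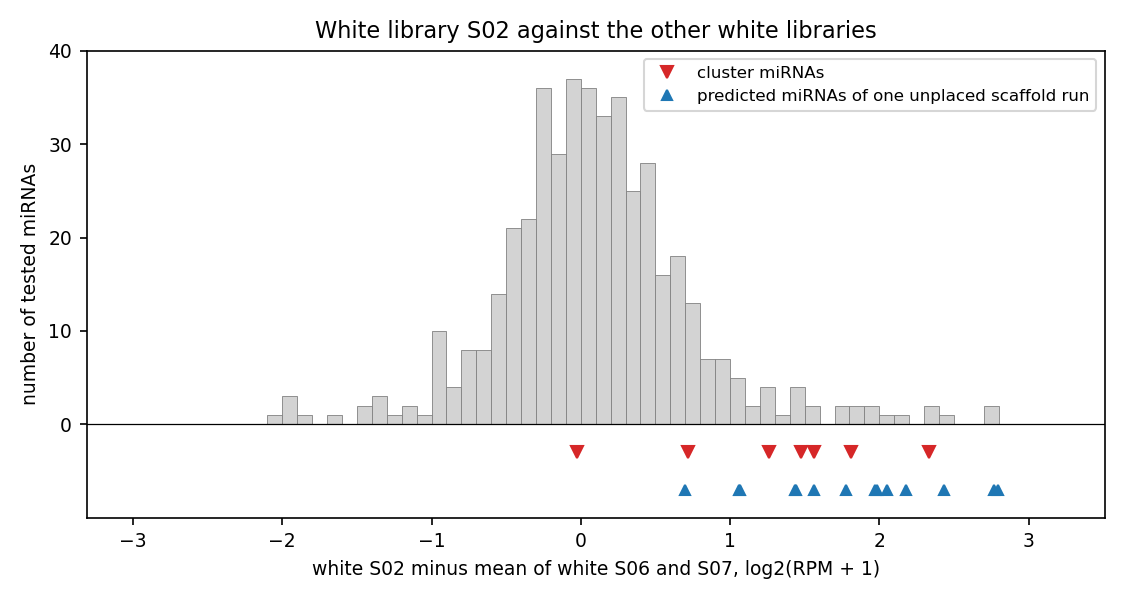
Excess of white S02 over the mean of white S06 and S07 on the log2(RPM + 1) scale for the 454 tested miRNAs (grey histogram), for the 7 tested cluster miRNAs (red) and for 14 tested predicted miRNAs of 1 unplaced scaffold (blue). The cluster miRNAs other than miR-370 lie between 0.72 and 2.33, and the median of all tested miRNAs is 0.07.

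S02 differed from the other white libraries in markers of some cell types as well. The 4 summed fibroblast and mesenchymal rows (miR-199a, miR-199b and miR-214) reached 32471 RPM in S02, against 21134 and 24337 RPM in S06 and S07, an excess of 1.43-fold where the cluster's was 3.07-fold. In black skin these rows summed to 18791 to 26118 RPM, so their sum was highest in S02. The sum was carried by ssc-miR-199b-5p and ssc-miR-199a-3p, each highest in S02, whereas ssc-miR-214 was lowest in S02 among white libraries, at 414.8 RPM against 486.9 and 589.8 RPM in S06 and S07, and ssc-miR-199a-5p was slightly lower in S02 than in S07. The summed level of the 6 striated muscle rows was lowest in S02, at 678 RPM against 1826 and 2017 RPM in the other white libraries, with 959 to 1604 RPM in black skin. Most of this sum is ssc-miR-1, and ssc-miR-499-5p went the other way, at 217.5 RPM in S02 against 204.2 and 140.8 RPM in S06 and S07. The 7 summed neural rows lay between 237 and 294 RPM in white skin, with S02 the lowest, and between 201 and 286 RPM in black skin. S02 was not the lowest white library for the most abundant of them. It measured 178.1 RPM for ssc-miR-128, against 238.6 and 140.8 RPM in S06 and S07. For ssc-miR-9 it measured 50.8 RPM, against 38.0 and 132.3 RPM. The scarcer ssc-miR-129a-3p, ssc-miR-129a-5p and ssc-miR-219a were lowest in S02 among white libraries. The smooth muscle list summed to 64998 to 84502 RPM in black skin and 26728 to 34192 RPM in white skin, with S02 between S06 and S07. Most of this sum is ssc-miR-143-3p. The colours did not overlap for it or for ssc-miR-145-3p, but did for ssc-miR-143-5p and ssc-miR-145-5p. The endothelial list summed to 28989 to 35451 RPM in black skin and 17322 to 23899 RPM in white skin. S02 was the lowest, just below S06 at 17637 RPM and well below S07. The leukocyte rows summed to 901 to 1570 RPM in black and 590 to 1321 RPM in white skin, and the erythroid rows to 994 to 4298 and 1723 to 4914 RPM, with S02 inside the white range for both. The part of any of these in the cluster's level was not tested.

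The proportion of the 2 sides of the cluster differed between libraries. The miR-379 to miR-656 side gave 24.8, 23.9 and 29.9% of the cluster's reads in black S03, S04 and S05, against 22.5, 15.03 and 16.4% in white S02, S06 and S07. This share does not depend on the scaling of a library or on the amount of the cluster as a whole. Black skin lay above white skin with no overlap, at 26.2 ± 3.20% against 18.0 ± 3.97% (SD, n = 3 each). S03 and S04 could not be told apart from S02, with exact 95% binomial intervals of 20.1 to 29.9% and 20.3 to 27.9% that overlap the 20.2 to 25.0% of S02. The intervals of S06 (11.5 to 19.1%) and S07 (13.3 to 19.9%) lay below those of all 3 black libraries and also below that of S02. In this share S02 was thus nearer to black S03 and S04 than to the other white libraries.

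The groups overlapped in this share once ssc-miR-758 was left out, and barely stayed apart without ssc-miR-127. Other members were not left out in turn. With ssc-miR-127 left out, the miR-379 to miR-656 side held 57.0, 66.1 and 69.4% of the remaining reads in black skin, and 56.7, 44.4 and 46.4% in white skin. The groups did not overlap, but S03 (77 of 135 reads) and S02 (271 of 478 reads) were almost level. Counting intervals did overlap, those of S03 and S04 with that of S02, and that of S03 also with those of S06 and S07. With ssc-miR-758 left out it held 17.6, 13.5 and 24.2% in black skin, and 15.7, 12.4 and 13.1% in white skin, and the groups overlapped. As the share is a score over members chosen with earlier results known, it has no p-value.

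**Figure D4:**
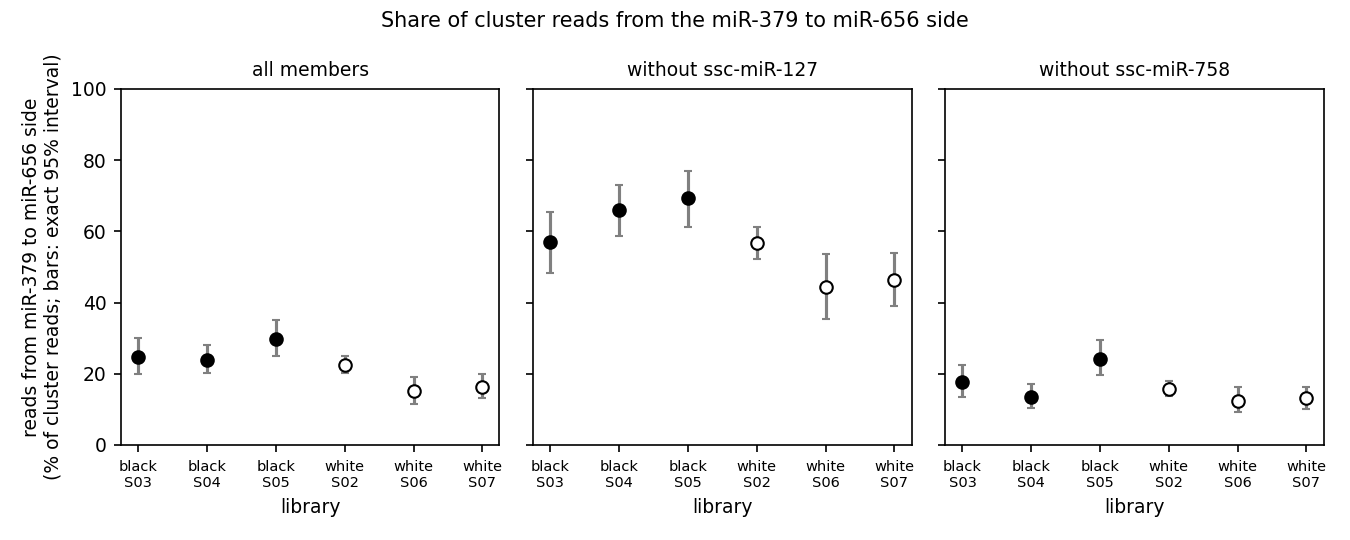
Share of cluster reads from the miR-379 to miR-656 side in each black (filled) and white (open) library, in percent with exact 95% binomial intervals, for all members, without miR-127 and without miR-758. Black libraries lie at 23.9 to 29.9% and white libraries at 15.03 to 22.5% for all members, and the groups overlap without miR-758.

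miRNAs of other imprinted loci gave a comparison. Of 5 such names fixed for comparison, miR-296 and miR-335 had a row. ssc-miR-296-3p, from the GNAS region, measured 14.8, 17.6 and 13.3 RPM in black skin, and 23.3, 29.1 and 31.3 RPM in white skin, with S02 the lowest white library and no overlap between the groups. Its difference of -0.83 had a standard error of 0.27 and did not pass (limma, adjusted p = 0.111). ssc-miR-335, from an intron of MEST, measured 4.26, 2.59 and 6.24 RPM in black skin, and 5.62, 1.86 and 3.15 RPM in white skin, and the groups overlapped (0.27, limma, adjusted p = 0.740). For ssc-miR-335 S02 was the highest white library but lay inside the black range.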

How the data were processed

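The authors deposited values in RPM, as each column of their table sums to 1e+06. The submitters' processing notes name Bowtie and Sscrofa11.1, with no version of the first and no role for either. How reads were counted, against which miRNA database and with which filters is not given in the sources used here. All deposited RPM values (100% in each library) were whole multiples of 1 read's worth, with a tolerance of 0.001, which gave the reads back. No column was set aside (0 left out). Intervals and limits (3 reads for a count of 0) cover counting error only.

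A miRNA entered the test when filterByExpr (edgeR 4.0.16) retained its reads at a minimum count of 10 and a minimum total of 15, as 454 of 898 did. limma 3.58.1 (R 4.3.3) with a mean-variance trend was fitted to log2(RPM + 1), a scale that understates the change of scarce miRNAs. Calls were made at a Benjamini-Hochberg adjusted p under 0.05, and the procedure was tested on simulated data. No block was fitted, as no animal is given that could pair a black with a white library. Fits without 1 library kept the same miRNAs. Recovered reads were also tested with edgeR, DESeq2 1.42.0 and limma-voom.

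The members and lists were chosen with earlier results of these data known. Values in every library are given for the 6 most abundant members, the largest difference each way and their opposite arms; those of ssc-miR-432-5p, ssc-miR-299 and ssc-miR-376a-3p, the shares without ssc-miR-127 or ssc-miR-758, and the attention to S02 and S04 were added after values were seen. Marker lists were matched by name without arm, and rows identical in all 6 libraries were summed once. Coordinates are those of RefSeq genes on Sscrofa11.1.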

Additional observations from a re-analysis of the deposited data

How the results depend on the processing

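The count of cluster members that passed was 0 in every setting run: TMM and RLE factors, RPM over named miRNAs only, no filter, 10 RPM in 3 libraries (which keeps 1 member), pseudocounts of 0.1 and 10, edgeR, DESeq2, limma-voom, and without each library in turn. Over all miRNAs the 32 calls became 52 with DESeq2, and ranged from 7 (without S05 or S06) to 37 (without S02), with 8 without S03, 16 without S04 and 19 without S07. Of 162 single-member values, 147 kept their direction and 15 turned, and the lowest adjusted p was 0.0759. Among the 147, some could not turn, as a change of filter leaves the difference as it was. These are the values with no filter of the 7 tested members and the 10 RPM value of ssc-miR-127. ssc-miR-758 (0.16) turned to -0.015 with a pseudocount of 10, -0.19 with edgeR and -0.20 with DESeq2, and ran from -0.26 to 0.94 without 1 library. ssc-miR-323 ran from -0.61 to 0.21 without 1 library, with the turn on leaving out S02. With no filter, ssc-miR-299 turned to 0.074 with a pseudocount of 0.1 and 0.12 with limma-voom, and ran from -0.50 to 0.55 without 1 library. ssc-miR-432-5p turned to 0.028 with limma-voom and ran from -0.53 to 0.42, and ssc-miR-376a-3p ran from -0.060 to 0.52. The arm ratio of miR-493 turned to -0.36 with a pseudocount of 0.1 and ran from -0.14 to 0.84; its hairpin entered with no filter, a setting added after the reads were seen, and it had no value with both arms at 10 RPM. The cause was not tested for any of these. The summed level differed by -42.0 RPM, and by -62.0 to -4.94 RPM without 1 library. The 4 members under the read filter had 0 to 36 reads per library, which limits what could be detected in them. No paired analysis was possible, as no animal is given for any library. Whether black and white libraries are paired within animals is not known.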

Other observations

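Other rows of the table shared the cluster's profile within white skin. Of the 20 tested miRNAs with the largest excess of S02 over S06 and S07, 4 were cluster members and 11 were predicted miRNAs whose identifiers name the unplaced scaffold AEMK02000452.1. These belong to 24 rows of that scaffold with identifier numbers from 1849924 to 1849983, and S02 was the highest of the 6 libraries for 18 of the 24, against 2 of the other 8 rows of the scaffold. The table gives no sequence for them, and the gene table does not name the sequence on which MIR376A lies, so whether any of them is a product of the cluster was not tested.

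Leaving out the most abundant of the 24, the rest summed to 115, 153.1 and 130 RPM in black S03, S04 and S05, against 477, 85.4 and 92.3 RPM in white S02, S06 and S07. S02 was thus 5.37 times the mean of S06 and S07, where the named cluster members without ssc-miR-127, their own most abundant, were 3.52 times. With all rows kept it was 3.01 times for the 24 and 3.07 times for the named cluster members. The most abundant, unconservative_AEMK02000452.1_1849951, differed in that black S03 exceeded S02, with 479, 344 and 380 RPM in black skin and 451.1, 260 and 180 RPM in white skin, where S02 was 2.05 times the mean of the others. Of the 24, 14 were tested between the skin colours and 0 passed (limma, smallest adjusted p = 0.356), with 0 at an unadjusted p under 0.05, against 7.05% and 25.6% of all 454 tested miRNAs; edgeR and DESeq2 also called 0 of them. These rows were singled out after their values were seen, so no test was made of the group.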
